A study of Homo sapiens with 5 samples.

Results

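The JmjC histone demethylases described here are the 10 genes KDM2A, KDM2B, KDM3A, KDM3B, KDM4A, KDM4B, KDM4C, KDM5B, KDM6A and KDM6B. They were taken from a fixed list of symbols, and their RefSeq accessions were found in the expression table through the RefSeq gene table. All 10 reached 1 FPKM (fragment counts scaled to transcript length and sequencing depth) in at least 1 RNA library, among 12916 genes that did so. The study asked what LSD1, a histone demethylase encoded by KDM1A, does when prostate cancer cells respond to androgen. It used the human lines LNCaP, from a lymph node metastasis, and VCaP, from a vertebral metastasis, in 5 samples with 1 sample to a group. For RNA, LNCaP cells carried an siRNA against LSD1 or a control siRNA. For chromatin immunoprecipitation (ChIP-seq), untransfected cells gave a list of peaks for LSD1 from each line, and from LNCaP a list for H3T6ph, the phosphorylation of threonine 6 on histone H3. All cells were at passages 14 to 17, and the labels' protocols describe 3 days of starvation in charcoal-stripped serum before stimulation with an unnamed hormone. Because no group was replicated, the spread between replicates is unknown, and no difference below has a replicate check or a p-value computed for it here.

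JmjC demethylases remove methyl groups from histone lysines with iron, oxygen and 2-oxoglutarate, and they can act on trimethylated lysines. LSD1 uses flavin instead and acts only on mono- and dimethylated lysines. In prostate cells KDM3A and KDM4C are known to clear H3K9 methylation at androgen-responsive genes, KDM4C together with LSD1, and H3T6ph is known to keep LSD1 from removing H3K4 methylation.

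The targeted gene had a far lower value in the library labelled LSD1 siRNA. KDM1A (chromosome 1, 23345941 to 23410184, hg19) was at 6.87 FPKM with LSD1 siRNA and 37.0 FPKM with control siRNA, which is 18.6% of control. All 8 prostate luminal markers were above 1 FPKM in both libraries and summed to 4016 FPKM with LSD1 siRNA and 5096 FPKM with control siRNA. The basal markers KRT5, KRT14 and TP63 were all under 1 FPKM in both libraries, the immune marker CD3E was listed at 0 in both, and PTPRC was at 0 and 0.0128 FPKM. Of the fibroblast markers COL1A2 was at 0 in both, while VIM was at 47.0 and 31.1 FPKM and COL1A1 at 11.7 and 8.77 FPKM, in LSD1 and control siRNA libraries. The part of these marker differences in the values of the demethylases was not tested, and in bulk RNA fewer cells of a kind and less RNA per cell cannot be told apart. Read totals are not in the expression table. The most frequent ratio among low values was 1.29 for LSD1 siRNA over control siRNA, in 486 of 5658 low accessions. If these 486 held equal fragments in both libraries, the LSD1 siRNA library had 77.3% of the depth of the control library. That condition was not tested. The fragments behind each value are unknown.

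Start regions of 5 members are shown, because KDM2A was among the 2 members past 1.2-fold between the RNA libraries, KDM4B and KDM4C held the most LSD1 peaks inside the gene, KDM3A held an LSD1 peak near its 5′ end and KDM6A was the most abundant. Each is the 250 bases before the most upstream start in the RefSeq promoter table (GRCh38.p14, plus strand for all 5), written 5′ to 3′. Capitals mark ACGTG on either strand, a core sequence bound by hypoxia-inducible factors. They lie at chr11:67119013-67119262 for KDM2A, chr2:86441121-86441370 for KDM3A, chr19:4968863-4969112 for KDM4B, chr9:6757723-6757972 for KDM4C and chrX:44872938-44873187 for KDM6A. These positions are on another build than the peaks, and none was converted.
KDM2A: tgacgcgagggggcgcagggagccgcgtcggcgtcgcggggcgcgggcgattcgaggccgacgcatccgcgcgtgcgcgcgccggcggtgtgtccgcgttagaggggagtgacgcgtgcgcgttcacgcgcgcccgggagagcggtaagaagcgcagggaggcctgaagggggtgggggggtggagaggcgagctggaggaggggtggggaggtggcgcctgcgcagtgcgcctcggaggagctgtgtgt
KDM3A: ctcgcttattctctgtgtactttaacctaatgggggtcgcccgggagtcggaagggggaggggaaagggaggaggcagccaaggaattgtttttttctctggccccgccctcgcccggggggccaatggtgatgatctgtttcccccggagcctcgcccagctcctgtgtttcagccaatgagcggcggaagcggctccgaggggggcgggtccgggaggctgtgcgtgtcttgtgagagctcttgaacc
KDM4B: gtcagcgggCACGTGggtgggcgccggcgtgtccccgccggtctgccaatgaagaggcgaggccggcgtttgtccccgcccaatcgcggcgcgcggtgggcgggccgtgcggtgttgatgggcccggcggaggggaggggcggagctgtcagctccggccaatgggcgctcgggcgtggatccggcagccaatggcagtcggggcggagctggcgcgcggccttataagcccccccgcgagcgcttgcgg
KDM4C: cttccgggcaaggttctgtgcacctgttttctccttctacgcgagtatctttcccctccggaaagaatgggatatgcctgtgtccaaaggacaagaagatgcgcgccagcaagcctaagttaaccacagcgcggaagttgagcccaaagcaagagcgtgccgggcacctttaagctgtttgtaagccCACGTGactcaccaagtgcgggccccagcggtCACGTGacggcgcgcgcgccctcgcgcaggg
KDM6A: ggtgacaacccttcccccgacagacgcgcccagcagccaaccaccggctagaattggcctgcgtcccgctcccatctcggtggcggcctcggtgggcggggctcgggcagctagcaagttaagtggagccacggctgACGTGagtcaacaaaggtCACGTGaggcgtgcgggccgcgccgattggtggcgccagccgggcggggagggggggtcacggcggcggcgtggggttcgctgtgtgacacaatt
The table lists 16 start regions for the 10 members. Those of KDM3A overlap and hold the same CCAAT and GC boxes, and the shares below are per region, not per gene. ACGTG stood in 3 of the 16, those of KDM4B, KDM4C and KDM6A, beside 18.5% of all 35116 start regions of the same length. Its matches in KDM4B and KDM4C were all in the palindrome CACGTG, which reads as ACGTG on both strands and so counts as 2 overlapping matches. Which factor, if any, binds these matches was not tested. The CCAAT box (CCAAT on either strand), bound by NF-Y, stood in 9 of the 16, over 7 members, beside 32.0% of all. The GC box GGGCGG, bound by SP1, stood in 11 of the 16, over 8 members, beside 42.6% of all.

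KDM6A was the most abundant member, and the demethylases of H3K27 had small log2 values of opposite sign. KDM6A, the X-linked UTX that works with the MLL3/4 methyltransferases, was at 85.5 FPKM with LSD1 siRNA and 94.6 FPKM with control siRNA, a log2 fold change of -0.14 on the log2(FPKM + 1) scale, which is used throughout. Its level was above that of 92.8% of protein-coding genes in the LSD1 siRNA library and 93.6% in the control library. KDM6B, the inducible JMJD3, was at 41.6 FPKM with LSD1 siRNA and 38.1 FPKM with control siRNA (log2 0.13). KDM6A thus had the lowest log2 value of the 10 and KDM6B a positive one. The value of KDM6A lay above 24.6% of protein-coding genes and that of KDM6B above 76.7%, so neither was extreme. Without replicates it is unknown whether the opposite signs exceed the spread between libraries.

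Among the H3K9 and H3K36 demethylases KDM3A had a higher value with LSD1 siRNA, while KDM3B was nearly equal in both libraries. KDM3A, which acts on mono- and dimethylated H3K9, was at 71.7 FPKM with LSD1 siRNA and 59.8 FPKM with control siRNA, 19.9% higher (log2 0.26). KDM3B, its paralog, was at 22.8 FPKM with LSD1 siRNA and 23.3 FPKM with control siRNA (log2 -0.03). In the KDM4 group, which acts on trimethylated H3K9 and H3K36, all 3 members had a higher value with LSD1 siRNA. The differences ran from 3.84% in KDM4C to 16.5% in KDM4B, and without replicates their shared sign may lie within the spread. KDM4B was at 56.5 FPKM with LSD1 siRNA and 48.5 FPKM with control siRNA (log2 0.22). KDM4A was at 30.9 FPKM with LSD1 siRNA and 29.0 FPKM with control siRNA (log2 0.09). KDM4C was at 15.7 FPKM with LSD1 siRNA and 15.2 FPKM with control siRNA (log2 0.05). KDM4A shares its listed interval with the antisense gene KDM4A-AS1, at 3.87 and 4.18 FPKM in LSD1 and control siRNA libraries. The RNA kit does not mark strand, so reads of this pair cannot be told apart where they overlap.

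The KDM2 pair had the largest differences on the log2 scale. These enzymes act on mono- and dimethylated H3K36 and bind unmethylated CpG islands through a zinc finger, and KDM2B brings the Polycomb complex PRC1.1 there. KDM2A was at 35.2 FPKM with LSD1 siRNA and 26.8 FPKM with control siRNA, 31.5% higher (log2 0.38). KDM2B was at 9.66 FPKM with LSD1 siRNA and 7.19 FPKM with control siRNA, 34.4% higher (log2 0.38). Both values, set among the protein-coding genes that reached 5 FPKM, lay above 97.0% of genes. KDM5B, which removes H3K4 trimethylation, the state that LSD1 cannot attack, was at 42.4 FPKM with LSD1 siRNA and 44.1 FPKM with control siRNA (log2 -0.05). It was the only KDM5 member of the list.

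**Figure D1:**
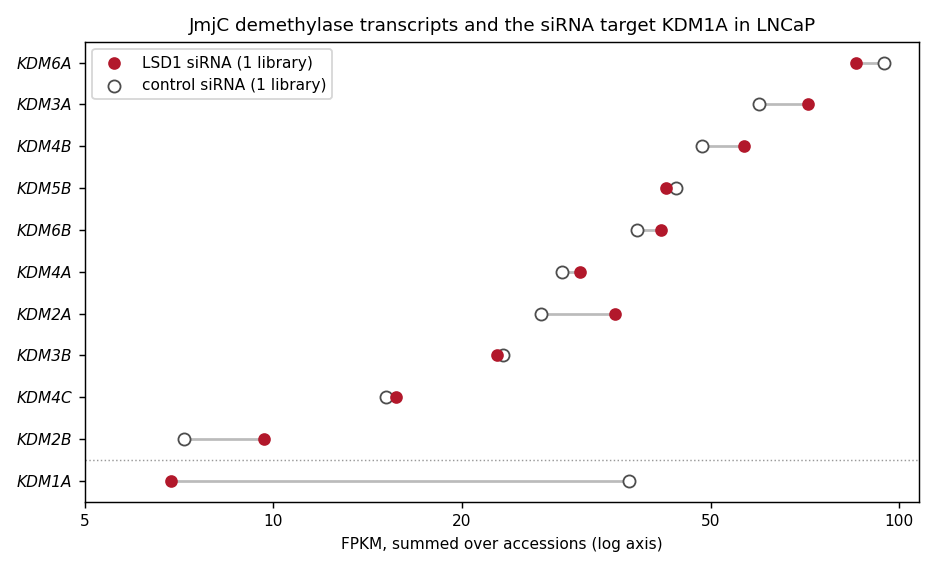
FPKM of the 10 JmjC demethylases, ordered by control level, and of the siRNA target KDM1A below the dotted line, on a log axis, with 1 filled point for the LSD1 siRNA library and 1 open point for the control siRNA library. Among the 10, KDM2A, KDM2B, KDM3A and KDM4B are shifted furthest to the right with LSD1 siRNA. KDM6A is shifted furthest to the left, by about as much as KDM6B is to the right. KDM1A is at 6.87 FPKM with LSD1 siRNA against 37.0 FPKM with control siRNA.

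The order of the levels was nearly the same in both libraries. From high to low with LSD1 siRNA it ran KDM6A, KDM3A, KDM4B, KDM5B, KDM6B, KDM2A, KDM4A, KDM3B, KDM4C and KDM2B. With control siRNA KDM2A and KDM4A stood in the opposite order, and no other place differed. With no replicates it is unknown which neighbours in this order differ beyond their spread, and KDM5B and KDM6B, at 42.4 and 41.6 FPKM with LSD1 siRNA, are among the closest.

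By a size of 1.2-fold, 2 of the 10 members were higher with LSD1 siRNA, KDM2A and KDM2B, and 0 were lower. The same size held for 8.83% of 11753 protein-coding genes in the higher direction and 11.1% in the lower direction. Restricted to 9253 protein-coding genes at 5 FPKM or more, a level all 10 members reach, the shares were 7.38% and 11.3%. KDM3A lay just under this size, at a log2 value of 0.26, and KDM2B, at 0.38, was the nearest member past it. At 1.5-fold 0 of the 10 members stood in either direction, beside 1.04% of protein-coding genes higher and 1.18% lower, and 0.111% and 0.128% passed 2-fold. The members' median log2 fold change was 0.11, with 7 of 10 above 0, beside a median of -0.01 and 47.1% above 0 over protein-coding genes. None of their 16 accessions was called in the authors' deposited table, where 0.642% of 22126 tested accessions were called and 0.978% of protein-coding genes had a called one. The lowest p-value for a member in the authors' deposited table was 0.0980, for the KDM2B accession NM_032590, and its q-value there was 1.00.

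**Figure D2:**
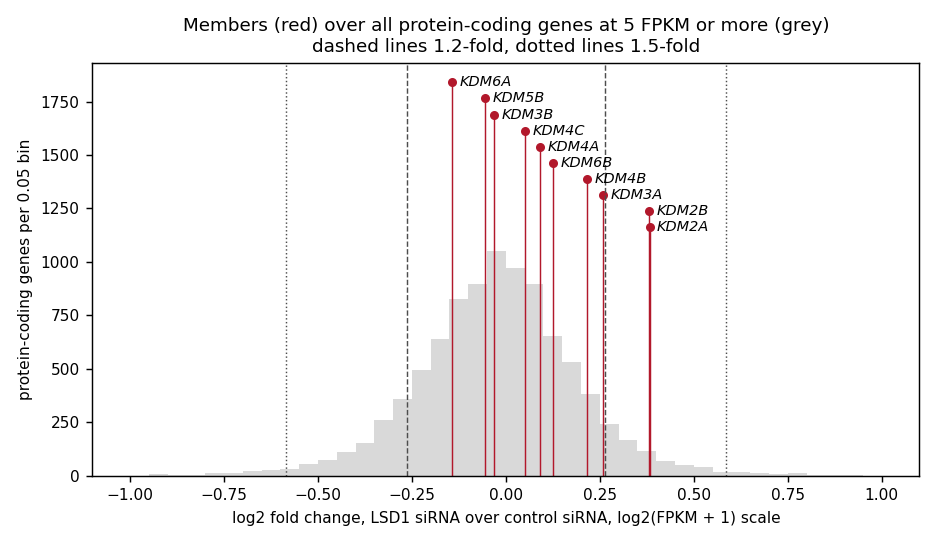
Log2 fold changes of the 10 members (red lines and points, heights arbitrary) over a histogram of protein-coding genes at 5 FPKM or more (grey, genes per bin, without the 9 higher and 11 lower genes past 2-fold), LSD1 siRNA over control siRNA. KDM2A and KDM2B stand past the dashed 1.2-fold line, all 10 lie within the dotted 1.5-fold lines, and KDM6A is lowest at -0.14.

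The table lists 4 of the members under more than 1 accession, which shows whether a difference ran through all forms. For KDM2A it lay mostly in 1 of 3. NM_012308 was at 23.6 FPKM with LSD1 siRNA and 15.9 FPKM with control siRNA (log2 0.54), and made up 66.9% of the gene's FPKM with LSD1 siRNA and 59.2% with control siRNA. NM_001256405 was at 7.60 and 7.06 FPKM, and the noncoding NR_027473 at 4.07 and 3.86 FPKM, with LSD1 and control siRNA. For KDM2B both forms were higher, in nearly the same proportion. NM_032590 was at 8.05 FPKM with LSD1 siRNA and 6.02 FPKM with control siRNA, and NM_001005366 at 1.61 and 1.17 FPKM, while the share of NM_032590 was 83.3% with LSD1 siRNA and 83.8% with control siRNA.

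For KDM3A the main accession NM_001146688 was at 66.7 FPKM with LSD1 siRNA and 56.9 FPKM with control siRNA. The minor NM_018433 was at 4.96 FPKM with LSD1 siRNA and 2.82 FPKM with control siRNA (log2 0.64), a share of 6.92% with LSD1 siRNA and 4.72% with control siRNA. For KDM4C NM_015061 was at 10.6 and 10.5 FPKM, NM_001146696 at 5.13 and 4.69 FPKM, and NM_001146695 was listed at 0, in LSD1 and control siRNA libraries. Accession NM_001146694, listed in the same interval, had no match in the RefSeq table and was at 1.83 and 1.81 FPKM. So the forms of KDM2B were higher in step, while in KDM2A 1 form held most of the difference. The split of shared reads among accessions is the authors' program's estimate, whose error is unknown. The other 6 members had 1 accession each, NM_016604 for KDM3B, NM_014663 for KDM4A, NM_015015 for KDM4B, NM_006618 for KDM5B, NM_021140 for KDM6A and NM_001080424 for KDM6B.

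**Figure D3:**
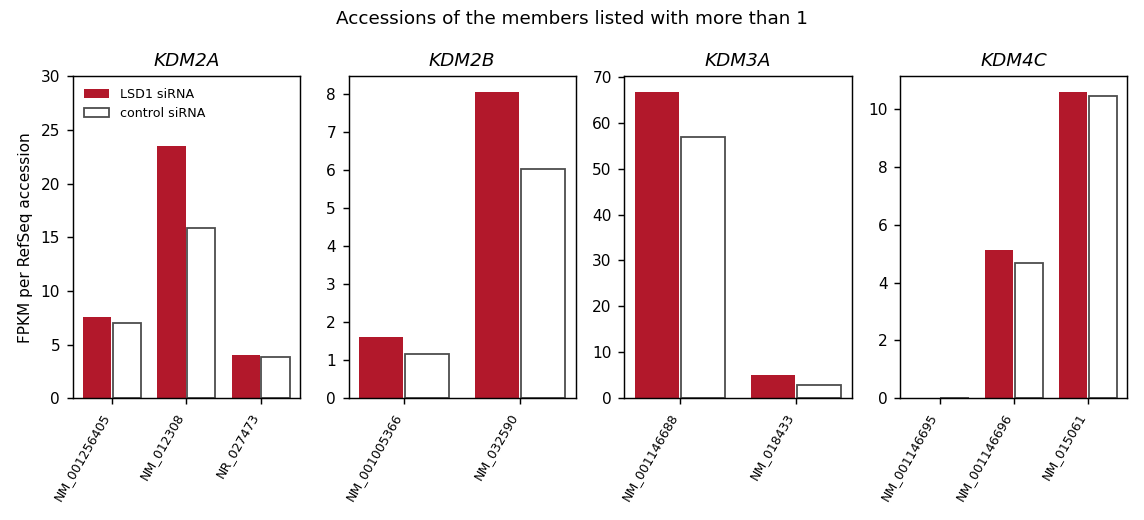
FPKM of each RefSeq accession of the 4 members with more than 1, filled bars for the LSD1 siRNA library and open bars for the control siRNA library, with an axis of its own for each gene. In KDM2A the widest gap is in NM_012308, at 23.6 and 15.9 FPKM, and in KDM2B both accessions are higher with LSD1 siRNA.

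The peak lists show where LSD1 and H3T6ph were called at these genes. A peak counted as near a gene within 20 kb of its listed interval, and 9 of 10 members had one from at least 1 list, beside 65.7% of protein-coding genes and 77.3% of those with an interval of 50 to 250 kb, a range that takes in 8 members. The second share, over genes of like length, is the closer background. An LNCaP LSD1 peak lay near 5 members, KDM3B, KDM4A, KDM4B, KDM4C and KDM5B, beside 42.2% of protein-coding genes. A VCaP LSD1 peak lay near 7 members, all but KDM4A, KDM5B and KDM6B, beside 41.9%. An H3T6ph peak lay near 2, KDM2A and KDM4B, beside 18.0%. Of the 8 members of 50 to 250 kb, 4 had LNCaP LSD1, 6 VCaP LSD1 and 2 H3T6ph, beside 55.3%, 49.4% and 24.7% of genes of that length. Per Mb of gene plus flanks the members held 7.53 LNCaP LSD1, 7.53 VCaP LSD1 and 1.08 H3T6ph peaks, against 5.90, 5.74 and 2.08 over protein-coding genes. These densities were 5.87, 5.12 and 2.12 over genes of 50 to 250 kb. Over genes in the range of lengths of all 10 members they were 5.95, 5.56 and 2.06.

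KDM4B held the peak that ranked highest within its list among the members' peaks, and the only site of all 3 lists. The scores are the authors' own, their scale is not stated, and they serve only to rank peaks within a list. On chromosome 19 the LNCaP LSD1 peak spanned 4991314 to 4992986 (hg19), ranked 347 of 11673 with a score of 145. The VCaP LSD1 peak spanned 4991183 to 4992857, ranked 873 of 9854. The H3T6ph peak spanned 4991657 to 4992463, ranked 763 of 4460, and lay wholly within both LSD1 peaks. The site was centred about 23.0 kb inside the gene from its 5′ end, in an interval of 4969124 to 5153608. Sites of all 3 lists lay near 1.67% of protein-coding genes and 2.16% of those of 50 to 250 kb. H3T6ph met LSD1 of LNCaP near 3.47% and 4.52% of these genes, and LSD1 of VCaP near 5.5% and 7.45%, and KDM4B was the 1 member in each case. A second KDM4B site was called for LSD1 in both lines, at 5046251 to 5047227 in LNCaP (score 109, ranked 1137) and 5045973 to 5046768 in VCaP (score 56.8). KDM4B also had an LNCaP peak 7.77 kb from its 5′ end and a VCaP peak 163 kb from it.

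KDM4C, the longest member, held LSD1 peaks in both lines but none in common. Its 5 LNCaP peaks were centred 135 to 444 kb from the 5′ end of the interval (chromosome 9, 6720863 to 7175648, hg19). The highest, at 6855737 to 6856318, had a score of 104 and ranked 1379 in its list. Its 3 VCaP peaks were centred 36.9, 44.3 and 291 kb from the 5′ end of the interval. The first, at 6757235 to 6758326, had a score of 105 and ranked 652. The printed KDM4C start region, 6757723 to 6757972 on GRCh38, falls within the same numbers. Whether that start lies under the peak on hg19 was not tested. An H3T6ph peak and a VCaP LSD1 peak met 37.4 kb past the gene, outside the 20 kb limit.

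At the members with VCaP LSD1 alone or with H3T6ph, the peaks were mostly far from the 5′ end of the listed interval. KDM2A (chromosome 11, 66886740 to 67025550) held a broad VCaP LSD1 peak of 3518 bases at 67005458 to 67008975, with a score of 86.9, 120 kb from its 5′ end. A further KDM2A start region is listed downstream of the printed one, at 67239764 to 67240013 on GRCh38. That region lies about as far downstream of the printed one as this peak lies from the 5′ end, so the peak may sit at this further start. The positions are on different builds and were not converted, so this was not tested. The KDM2A H3T6ph peak at 66983183 to 66983594 had a score of 53.3 and overlapped no other list. KDM2B (chromosome 12, 121866900 to 122018920) held 1 VCaP LSD1 peak, at 121882655 to 121883814, and its nearest LNCaP LSD1 peak lay 21.7 kb before its 5′ end, just past the limit. KDM6A (chromosome X, 44732423 to 44971845) held 1 VCaP LSD1 peak, at 44922632 to 44923217. KDM3A (chromosome 2, 86668271 to 86719839) differed, with VCaP LSD1 peaks on both sides of its 5′ end, at 86663537 to 86664154 and 86669190 to 86669840, each with a score of 55.0 in the authors' list. The second lay 0.919 kb inside the gene. It was the only one of 30 peaks near members within 1 kb of the 5′ end of a listed interval. Start sites further inside an interval were not placed on hg19, so peaks at such starts were not counted.

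Several LNCaP LSD1 peaks lay outside the member or over a neighbour. For KDM5B (chromosome 1, 202696532 to 202777549), on the minus strand, a peak at 202779210 to 202780248 lay 1.66 kb before the 5′ end and overlapped the interval of PCAT6, a long noncoding RNA listed at 0 FPKM in both libraries. A further KDM5B peak, at 202682156 to 202682710, lay 13.8 kb past its 3′ end. For KDM3B (chromosome 5, 137688285 to 137772716) all 3 LNCaP peaks were outside, and 1 of them, at 137672918 to 137673629, overlapped the neighbour FAM53C. The next, at 137784632 to 137785117, overlapped no peak of another list. The last, at 137785605 to 137786152, met a VCaP LSD1 peak at 137785209 to 137786451, 12.5 kb past the gene. Inside KDM3B lay 2 VCaP LSD1 peaks, at 137696605 to 137697330 and 137757212 to 137758106. KDM3B and KDM4B were the 2 members near a site of LSD1 in both lines, beside 8.51% of protein-coding genes and 9.92% of those of 50 to 250 kb. The single KDM4A peak, at 44170114 to 44170990 on chromosome 1, lay at the 3′ end of its interval (44115797 to 44173012). The antisense gene KDM4A-AS1 is listed with the same interval, and that of ST3GAL3 starts just past it, at 44173204. KDM6B (chromosome 17, 7743235 to 7758118), the shortest gene, had no peak within 20 kb, and its nearest was a VCaP LSD1 peak 34.3 kb away over CHD3.

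**Figure D4:**
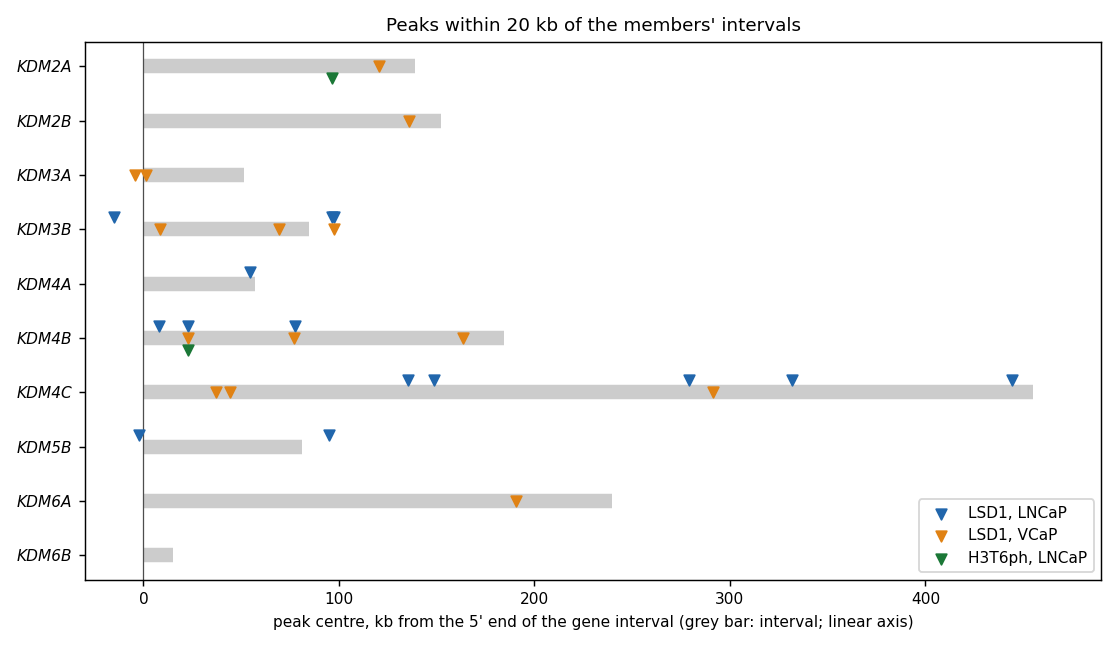
Peak centres within 20 kb of each member, in kb from the 5′ end of its interval on a linear axis (grey bars are the intervals), from 1 list each for LSD1 in LNCaP (blue), LSD1 in VCaP (orange) and H3T6ph in LNCaP (green). The 3 colours meet at KDM4B about 23.0 kb inside the gene, and KDM6B has no peak.

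Binding and expression in LNCaP were set side by side for the members. The 5 members with an LNCaP LSD1 peak within 20 kb had log2 fold changes of -0.05 to 0.22 with a median of 0.05. The 5 without one, KDM2A, KDM2B, KDM3A, KDM6A and KDM6B, ran from -0.14 to 0.38 with a median of 0.26. The 3 highest values, those of KDM2A, KDM2B and KDM3A, were in genes without such a peak, and so was the lowest, of KDM6A. The split rests on the 20 kb limit, since within 50 kb 7 members had an LNCaP LSD1 peak, KDM2B with one 21.7 kb away and KDM6B with one 48.7 kb away among them. The ranges overlap, and no test was made over so few genes chosen by name.

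Genes that share the members' fold, substrates or cofactors were described list by list. Of 20 other JmjC genes, 17 reached 1 FPKM, 9 of them with a value above 0, and the median was 0.03 on the log2 scale. PHF8, a demethylase of H3K9 and H4K20, was at 17.8 FPKM with LSD1 siRNA and 25.3 FPKM with control siRNA (log2 -0.48). RIOX2, a ribosomal oxygenase, was at 9.0 FPKM with LSD1 siRNA and 11.6 FPKM with control siRNA (log2 -0.33). These were the 2 members of that list lower by 1.2-fold, and JMJD1C, at 9.49 FPKM with LSD1 siRNA and 7.63 FPKM with control siRNA (log2 0.28), was the 1 higher.

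The enzymes that place the marks differed little, with 0 past 1.2-fold in 4 lists. The 5 measured H3K4 methyltransferases had a median of 0.01, with KMT2D at 0.13 and SETD1A at 0.07. The 6 H3K9 methyltransferases had a median of -0.08, or 0.07 when each gene was taken by its single highest accession, with SETDB2 at -0.15 and SUV39H2 at -0.13. SUV39H2 had 1 accession, NM_001193425, that the authors' deposited table called at q = 0.0116, listed at 0 with LSD1 siRNA and at 2.60 FPKM with control siRNA, while the gene's sum was at 3.90 and 4.36 FPKM. The 10 subunits of PRC2, the H3K27 methyltransferase, had a median of 0.09 with 8 above 0, among them PHF1 at 0.24 and EED at 0.15. The 5 H3K36 methyltransferases had a median of 0.00, with NSD3 at 0.10 and SETD2 at -0.03.

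The complexes of KDM2B and KDM6A were followed through their other subunits. Of 9 PRC1.1 partners of KDM2B, 5 had a lower value with LSD1 siRNA and the median was -0.14, while KDM2B itself was at 0.38. BCORL1 was at 0.27, past 1.2-fold, and RNF2, the ubiquitin ligase of the complex, at -0.21. The 9 MLL3/4 partners of KDM6A had a median of 0.01 with 0 past 1.2-fold, with ASH2L at -0.19 and PAXIP1 at 0.13.

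The list of 2-oxoglutarate and oxygen genes held the largest single value. GLUD1, the mitochondrial glutamate dehydrogenase that makes 2-oxoglutarate, was at 39.2 FPKM with LSD1 siRNA and 73.4 FPKM with control siRNA (log2 -0.89), and the authors' deposited table called it at q = 0.00625. It has near-identical copies in the genome, so its level is uncertain. EPAS1, the hypoxia-inducible factor HIF-2α, was at 2.30 FPKM with LSD1 siRNA and 1.37 FPKM with control siRNA (log2 0.48). The list's median over 14 genes was -0.01, with 7 above 0, 2 higher and 2 lower by 1.2-fold, and only GLUD1 past 1.5-fold.

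**Figure D5:**
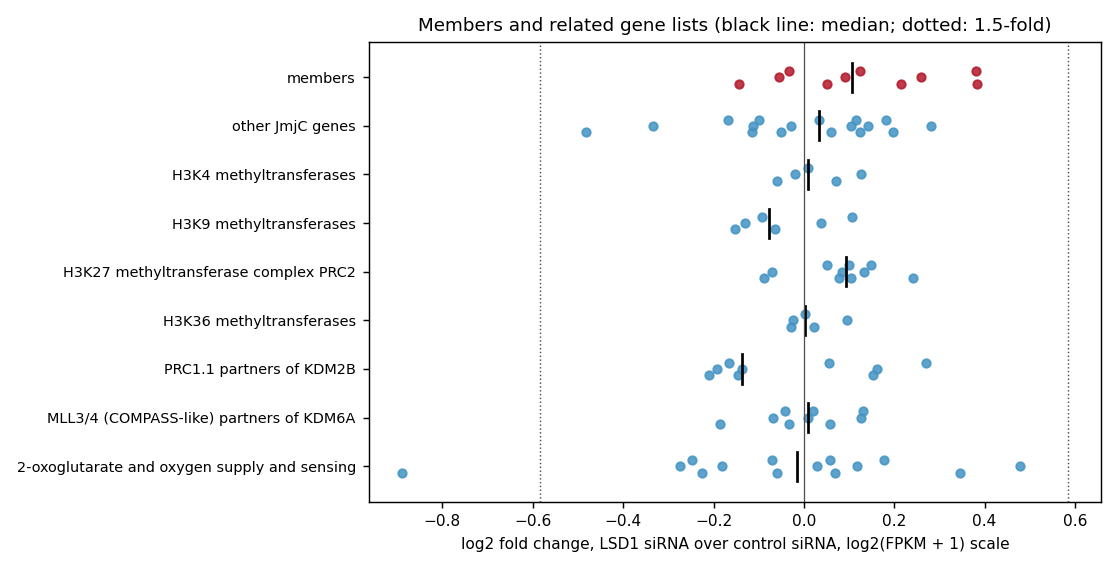
Log2 fold changes of the 10 members (red) and of the genes at 1 FPKM or more in 8 related lists (blue), LSD1 siRNA over control siRNA, 1 point per gene (some genes stand in more than 1 list), with the median as a black line and 1.5-fold as dotted lines. The members' median is 0.11, and GLUD1 in the lowest row is the only point past 1.5-fold, at -0.89.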

How the data were processed

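RNA was measured in 2 LNCaP libraries and peaks in 3 ChIP samples. Expression was deposited as FPKM per RefSeq accession, with the authors' p-value and q-value, in a table laid out as Cuffdiff writes it, per the file headers. The authors deposited 1 score per peak, on a scale that is not stated. Tools named in the submitters' processing notes are MACS2, Cuffdiff 2.0.1, TopHat2 2.0.4 and Bowtie2 2.0.0, with the build hg19. The sources used here give no annotation version, ChIP control, scaling or duplicate treatment.

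A symbol was found for 38934 of 40253 accessions through the RefSeq table of GRCh38.p14, used for names, gene types and strand. Accessions of 1 symbol were added up in FPKM, and 42 symbols with an accession marked as failed were left out. Fold changes are LSD1 siRNA over control siRNA on the log2(FPKM + 1) scale, over genes that reach 1 FPKM in at least 1 library, and understate low genes. With 1 library per group no test was run, and sizes of 1.2, 1.5 and 2-fold describe. Peaks were near within 20 kb of the listed interval, which can span overlapping transcripts, and lists met with 1 shared base. The 5′ end is the end of the interval that the strand gives. The calculations (Python 3.11.15, pandas 2.3.3) were checked on data with known answers. The members, lists and sizes were chosen with earlier results of these data known. Named were all members, KDM1A, the 2 genes of each list with the largest absolute log2 value, and the peaks near members, some by distance only, with every accession of a member. JMJD1C and the neighbours were named after their values were seen. A value of 1 marker gene and 1 motif are not reported here.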

Additional observations from a re-analysis of the deposited data

How the results depend on the processing

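No member's log2 fold change changed sign or moved by more than the spread across protein-coding genes at 5 FPKM or more (SD 0.22) under pseudocounts of 0.1 and 5, the single highest accession of each gene, or centring on the median, in 40 values. The largest shift, 0.16, was in KDM2A with its highest accession alone. The accession choice could not change the 6 members with 1 accession, and centring moved every gene by the same amount. The spread of 0.22 is wider than the absolute log2 value of most members, so staying within it says little about their stability. The median of each list also stayed within that spread in 32 values, an alternative chosen after seeing the data, and the H3K9 methyltransferase median alone turned sign, at 0.07 with the single highest accession. The count of members past 1.5-fold was 0 under every pseudocount, filter and accession choice run and at 2-fold, and 2 at 1.2-fold. Over 12916 genes of any type at 1 FPKM or more, 558 passed 1.5-fold. Among the 11753 protein-coding ones, the background used above, 122 were higher and 139 lower by that size. The number over genes of any type was 569 with no filter on low values and 454 at 5 FPKM or more. Members with an LNCaP LSD1 peak numbered 3 when the peak had to overlap the interval, against 5 within 20 kb. Members with an H3T6ph peak numbered 1 among the better-scoring 50% of that list, against 2. With each list limited to the same number of top-scoring peaks, the LNCaP LSD1 count was 2, the VCaP LSD1 count 6 and the H3T6ph count 2. When lists had to share at least 50% of each peak, LSD1 in both lines met at 1 member, KDM4B, and H3T6ph met LSD1 of LNCaP at 0 members and LSD1 of VCaP at 0, since the H3T6ph peak of 807 bases at KDM4B is narrower than the LSD1 peaks of 1673 and 1675 bases around it. The cause of the other shifts was not tested. No paired analysis was possible because each group held 1 sample. The depth of the ChIP samples is unknown, so a site missing from a list may be bound below its threshold.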
